A study of Homo sapiens with 21 samples.

Results

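Some circular RNAs (circRNAs) were read in PC-9 lung cancer cells and in neither NL20 nor NCI-H1975 cells labelled with no drug or plasmid. They were taken as the circRNAs with at least 1 read in each of the 3 PC-9 libraries and 0 reads in all 3 libraries of NL20 and all 3 of NCI-H1975. After 4 identifiers (hsa_circ_104535, hsa_circ_48935, hsa_circ_85922 and hsa_circ_85923) were left out, 449 of the 124082 circRNAs in the deposited table met this rule, or 0.362%. The members were chosen by the read counts in those 9 libraries, so the difference of PC-9 from NL20 and NCI-H1975 is how they were found and is given without a test. The 12 libraries that the rule did not use were 3 of gefitinib-resistant PC-9 cells and 9 of NCI-H1975 cells after selection or transfection.

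CircRNAs are closed transcripts made by back-splicing, in which a downstream splice donor is ligated to an acceptor that lies before it in the gene. They have no free ends, which protects them from exonucleases, and some can bind microRNAs or proteins. Which circRNAs a cell makes depends on the transcription of the host gene and on splicing factors, and many are known to be restricted to certain cell types.

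Both PC-9 and NCI-H1975 are lung cancer lines that carry mutant EGFR, the epidermal growth factor receptor. NL20 is an immortalized line of bronchial epithelium that does not form tumours. Gefitinib-resistant PC-9 cells were treated with 1 µM gefitinib, an EGFR tyrosine kinase inhibitor, and osimertinib-resistant NCI-H1975 cells in 1 µM osimertinib, a later inhibitor of the same receptor. NCI-H1975 cells transfected with the plasmid pCMV6 or with FASN, which encodes fatty acid synthase, received 50 µg/ml G418 for selection. Every group was grown in the same serum-supplemented medium and had 3 libraries. The labels do not say whether these came from separate cultures, so p-values measure the spread between libraries, which can be technical. The labels also do not say whether a resistant or transfected line was 1 clone. The deposited table numbers its circRNAs and pairs no number with a gene, a coordinate or a sequence. Host genes, sequences and cell type markers of the members were therefore not analysed here, and few identifiers are printed.

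Library totals ran from 95808 to 203079 reads, with 131329, 192666 and 106266 in PC-9 replicates 1, 2 and 3. Osimertinib-resistant replicate 2 stood apart, with 15244 circRNAs read against 18494 to 30198 in the other libraries. A count of 0 allows up to 3 counts over a group, for counting error only, because reads amplified without molecular identifiers are not independent molecules. In bulk RNA of this kind, fewer cells that make a circRNA and fewer copies per cell cannot be told apart.

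The members were mostly scarce. Over the 3 PC-9 libraries a member had between 3 and 297 reads, with a median of 10.0, a lower quartile of 6.0 and an upper quartile of 17.0. There were 86 members with at least 20 PC-9 reads and 28 with at least 50. The 10 most abundant took 23.1% of the 8188 PC-9 reads of the members. The members held 1.93% ± 0.183 of the reads of a PC-9 library (SD, n = 3).

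The threshold cut through a continuous range of low counts. Just inside it, 18 members had 1 read in each PC-9 library, and 13 of these were also read in gefitinib-resistant cells. Just outside it, 171 circRNAs were read in each PC-9 library and had exactly 1 read over NL20 and NCI-H1975, 85 of them in NL20 and 86 in NCI-H1975. These had a median of 9.0 and a maximum of 164 PC-9 reads. A further 1489 circRNAs were read in only 2 PC-9 libraries and in neither of the other lines, with a median of 4.0 PC-9 reads and a maximum of 29. The membership accordingly moved with each PC-9 library: asking for a read in the other two alone gave 932 circRNAs without replicate 1, 803 without replicate 2 and 1101 without replicate 3.

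Among the abundant members, hsa_circ_105894 had 75, 153 and 69 reads in PC-9 replicates 1, 2 and 3, the highest sum of the set. It stood at 904 ± 185 CPM (counts scaled by edgeR's library size, SD, n = 3). hsa_circ_35141 followed with 101, 94 and 90 reads and 933 ± 215 CPM. hsa_circ_104453 had 63, 145 and 61 reads and 811 ± 217 CPM. PC-9 replicate 2, the deepest of the 3, held the highest count of hsa_circ_105894 and hsa_circ_104453 but not of hsa_circ_35141. hsa_circ_105894 and hsa_circ_104453 had the most PC-9 reads among the members without a read in any NCI-H1975 library, resistant and transfected cells included. hsa_circ_35141 had 1 read in pCMV6 replicate 3 and 2 in FASN replicate 3.

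**Figure D1:**
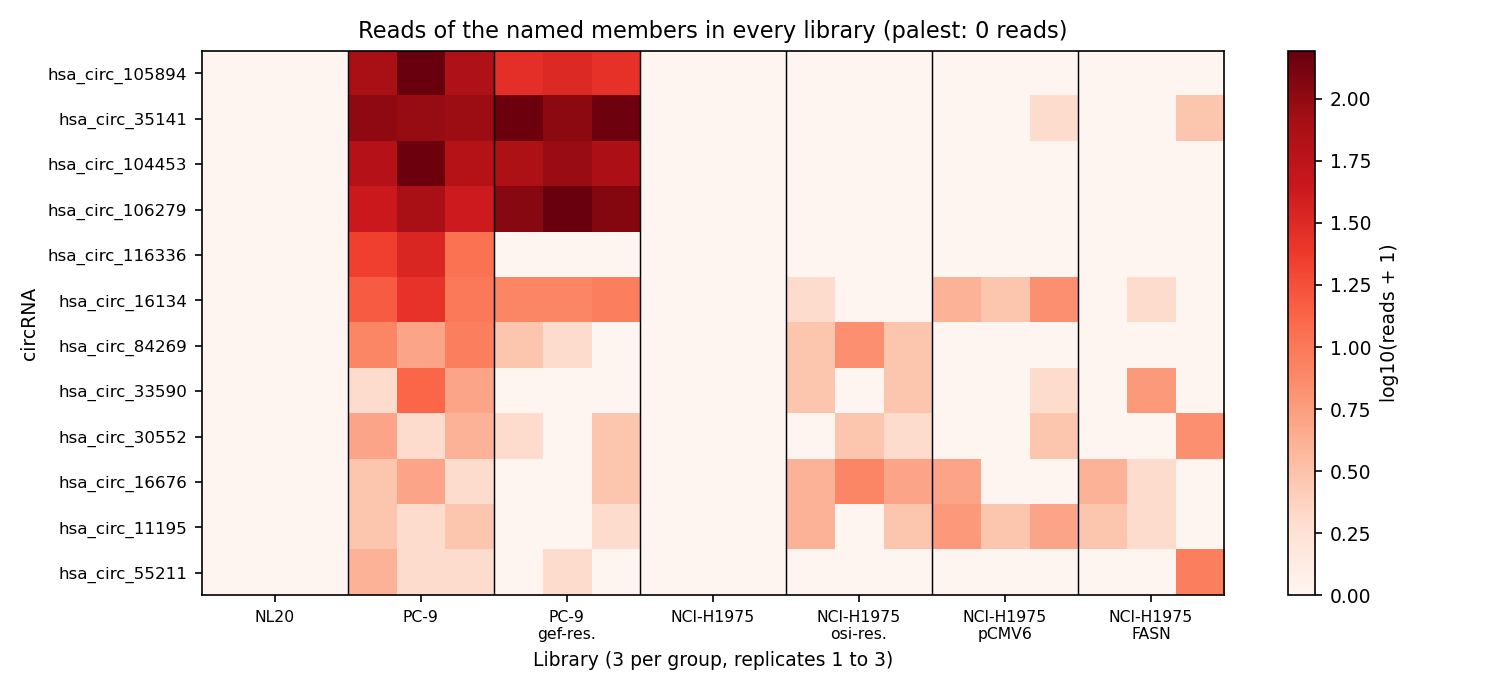
Reads of 12 members named in the text, with the 21 libraries in columns by group and colour giving log10(reads + 1). Members named only for a tied sum of reads are not shown. The 5 upper circRNAs have the most PC-9 reads of the 12, and 1 of them, hsa_circ_116336, is at 0 in every gefitinib-resistant library.

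Most members were still read in the gefitinib-resistant cells, which asks how far the PC-9 set is kept in a resistant line of the same origin. A read was found in 370 of the 449 members (82.4%) in at least 1 of the 3 resistant libraries. All 3 libraries held 162 of them (36.1%), 2 libraries held 103 and 1 library held 105, while 79 members (17.6%) had no read there. The resistant libraries were much alike, with 260, 272 and 265 members read in replicates 1, 2 and 3. Members took 1.74%, 1.63% and 1.65% of the reads of these libraries, a mean of 1.68% ± 0.0585 (SD, n = 3), and every value was below the 1.81% to 2.14% of the PC-9 libraries.

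**Figure D2:**
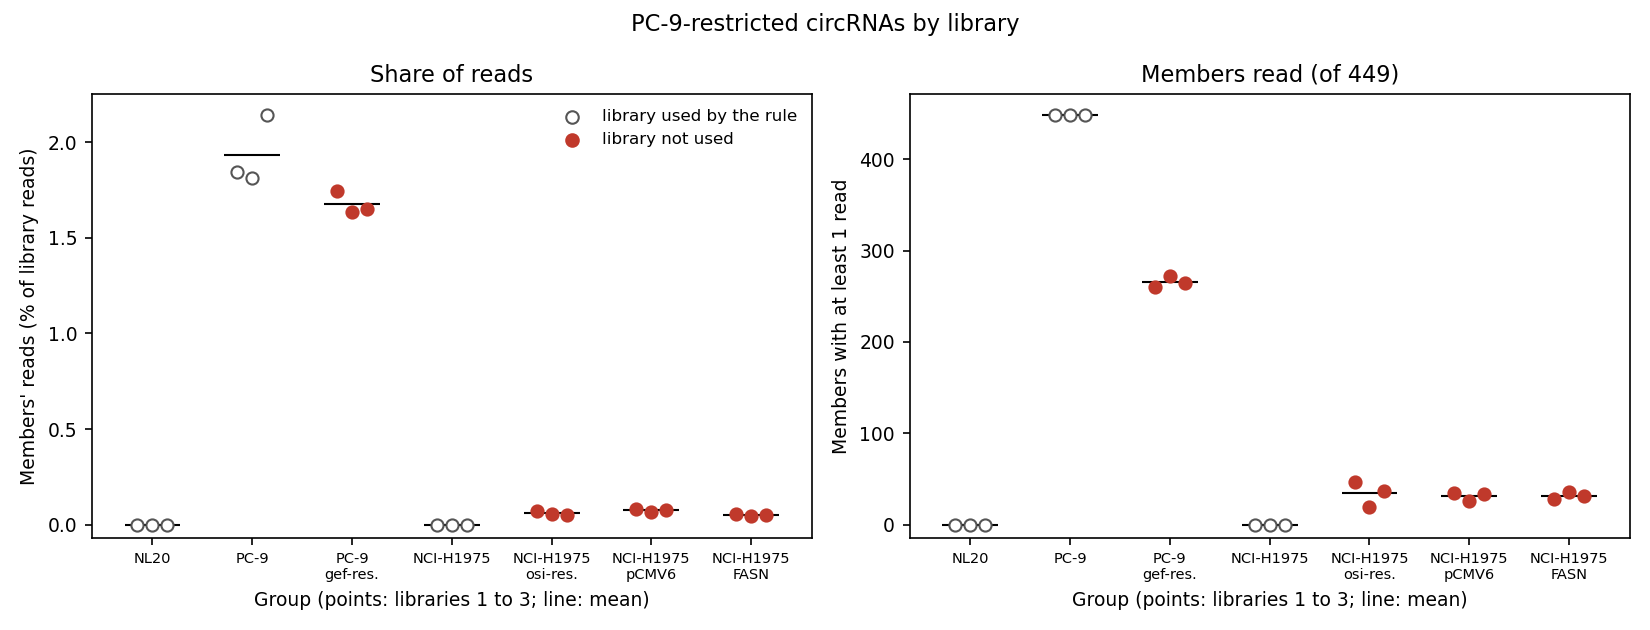
Share of library reads in the members (left, % of reads) and number of the 449 members with at least 1 read (right) for each library, with group means as lines and open points for the libraries that the rule used. Gefitinib-resistant PC-9 libraries sit at 1.63% to 1.74%, and the 9 resistant or transfected NCI-H1975 libraries lie near 0.

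The rule was also applied the other way round. With the gefitinib-resistant libraries in place of the PC-9 libraries in the rule, 364 circRNAs were chosen. They held 1.91% of the pooled gefitinib-resistant reads and 1.49% of the pooled PC-9 reads, whereas the PC-9-chosen members held 1.67% and 1.90%. Each set was lower in the group that did not choose it, and how far the choice of members bears on either difference was not tested.

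Retention followed abundance in PC-9. Of members with 3 to 4 PC-9 reads, 11.4% were read in all 3 resistant libraries, and of those with 5 to 9 reads 17.5%. The share was 37.3% at 10 to 19 reads, 79.3% at 20 to 49 and 96.4%, or 27 of 28, at 50 or more. The other 8261 circRNAs that were read in each PC-9 library showed the same order at higher shares, with 23.9%, 31.9%, 56.8%, 88.8% and 99.4%. These shares describe circRNAs, which are not independent replicates, and their difference was not tested. Resistant libraries were shallower, with 346590 reads in all against 430261 in PC-9.

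**Figure D3:**
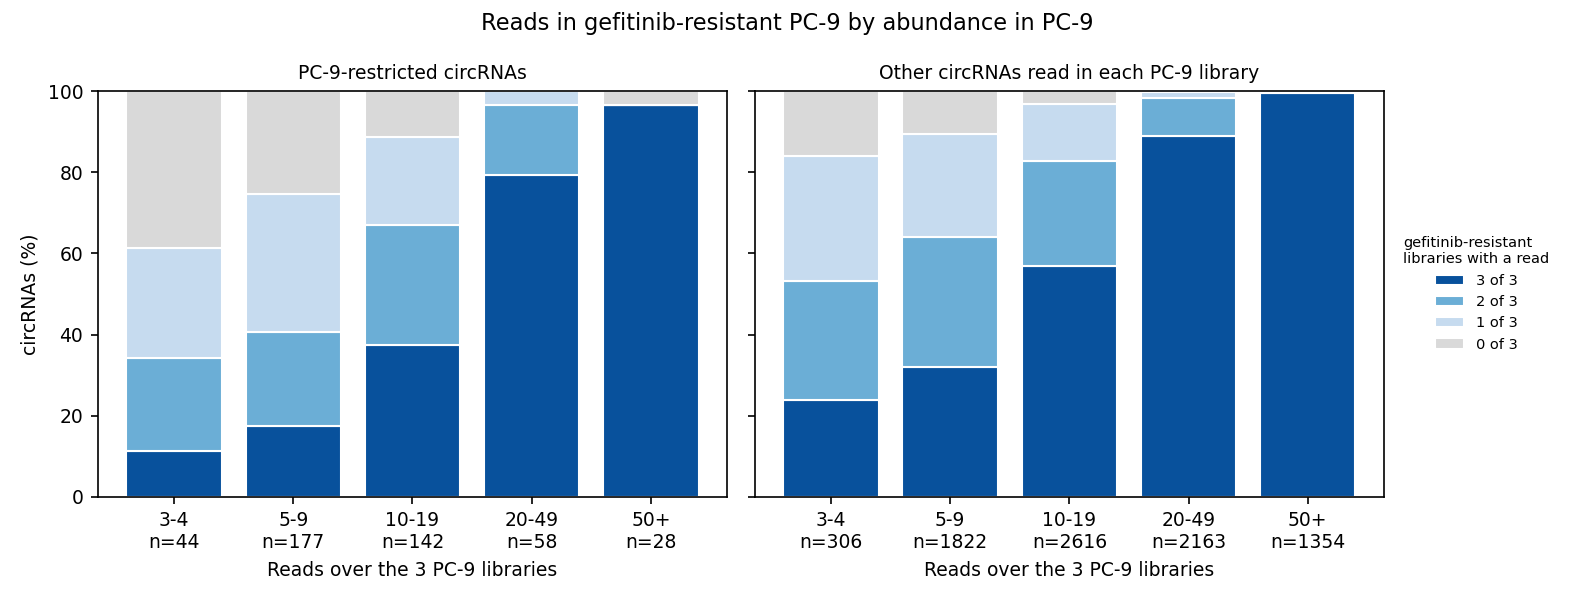
Percent of circRNAs read in 3, 2, 1 or 0 of the gefitinib-resistant libraries, by reads over the 3 PC-9 libraries, for the members (left) and for the other circRNAs read in each PC-9 library (right). The share read in all 3 rises from 11.4% to 96.4% in the members and from 23.9% to 99.4% in the others.

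Members without a read in resistant cells were nearly all rare in PC-9. Their median was 7.0 PC-9 reads, against 18.0 for the members read in all 3 resistant libraries. The exception was hsa_circ_116336, with 21, 33 and 10 reads in PC-9 replicates 1, 2 and 3 and none in any of the 18 other libraries. Next came hsa_circ_33590, with 1, 12 and 4 PC-9 reads, 12 of its 17 in replicate 2. Without a PC-9 library in the rule, the count of members with no resistant read was 342, 252 and 395 for replicates 1, 2 and 3, since rarer circRNAs then enter.

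Well-counted members spread to both sides of an equal level. For the 86 members with at least 20 PC-9 reads, the ratio of gefitinib-resistant to PC-9 reads per library read had a median of 0.787 and quartiles of 0.416 and 1.30. It was above 1 in 36 and below 1 in 50. The 3517 other circRNAs with as many PC-9 reads had a median of 0.859 and quartiles of 0.591 and 1.19. At 50 PC-9 reads or more the medians were 0.989 for the 28 members and 0.901 for 1354 others. The PC-9 reads that chose the circRNAs of both sets also stand in these ratios, so values below 1 were favoured by the choice.

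Of the 449 members, 105 passed the filter on low counts, and none of these would have passed through the libraries of other groups than PC-9 and gefitinib-resistant PC-9. Between those groups edgeR's quasi-likelihood test, fitted over 9175 circRNAs with Benjamini-Hochberg adjustment, called 1 member higher and 2 lower in the resistant cells at an adjusted p under 0.05. Over all circRNAs tested, 0.73% were called higher and 0.621% lower. The PC-9 libraries of this comparison also chose the members, so the calls are given as a description of single circRNAs, and nothing is read from their number. The median log2 difference was 0.13 for the tested members and -0.0030 for all circRNAs tested. An unadjusted p under 0.05 was found for 7 of the 105 tested members and for 1018 of the 9175 circRNAs tested. DESeq2 called 2 members, and 211 of all circRNAs.

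The member called higher was hsa_circ_106279, with 43, 75 and 41 reads in PC-9 and 109, 155 and 114 in resistant cells. No resistant library overlapped with a PC-9 library. Its level was 493 ± 51.8 CPM in PC-9 and 1422 ± 240 CPM in resistant cells (SD, n = 3). The log2 change was 1.52 ± 0.33 (SE). Since reads in PC-9 chose this member, its values are given without p-values. The edgeR call was lost without gefitinib-resistant replicate 2 and remained without any 1 of the other 5 libraries. With no filter on low counts the call was lost. hsa_circ_106279 had no read in any NL20 or NCI-H1975 library of any kind.

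The members called lower were hsa_circ_116336 and hsa_circ_105894, and since reads in PC-9 chose them, their values are likewise given without p-values. hsa_circ_116336 stood at 192 ± 64.4 CPM in PC-9 (SD, n = 3). With its 64 reads there and 0 in resistant cells, and a floor of 3 counts over the group, this was at least 17.2-fold lower. Leaving out each library in turn, the edgeR call remained without PC-9 replicate 3 and was lost without any 1 of the other 5, and DESeq2 gave it no adjusted p. hsa_circ_105894 had 28, 31 and 27 reads in resistant cells against the 75, 153 and 69 given above, and its level was 904 ± 185 CPM in PC-9 and 324 ± 17.2 CPM in resistant cells. Its log2 difference was -1.48 ± 0.42 (SE), and the edgeR call was lost without any 1 of the 6 libraries, with log2 differences of -1.60 to -1.30. DESeq2 called it. With no filter on low counts, edgeR called neither.

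Other abundant members gave no call. hsa_circ_35141 had 144, 103 and 143 reads in the resistant libraries, each above its PC-9 counts of 90 to 101. The log2 difference of hsa_circ_35141 was 0.67 ± 0.30 (SE). hsa_circ_104453 had 71, 91 and 72 reads and a log2 difference of 0.11 ± 0.34 (SE). Its levels, 811 ± 217 CPM in PC-9 and 881 ± 101 CPM in resistant cells, overlapped.

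**Figure D4:**
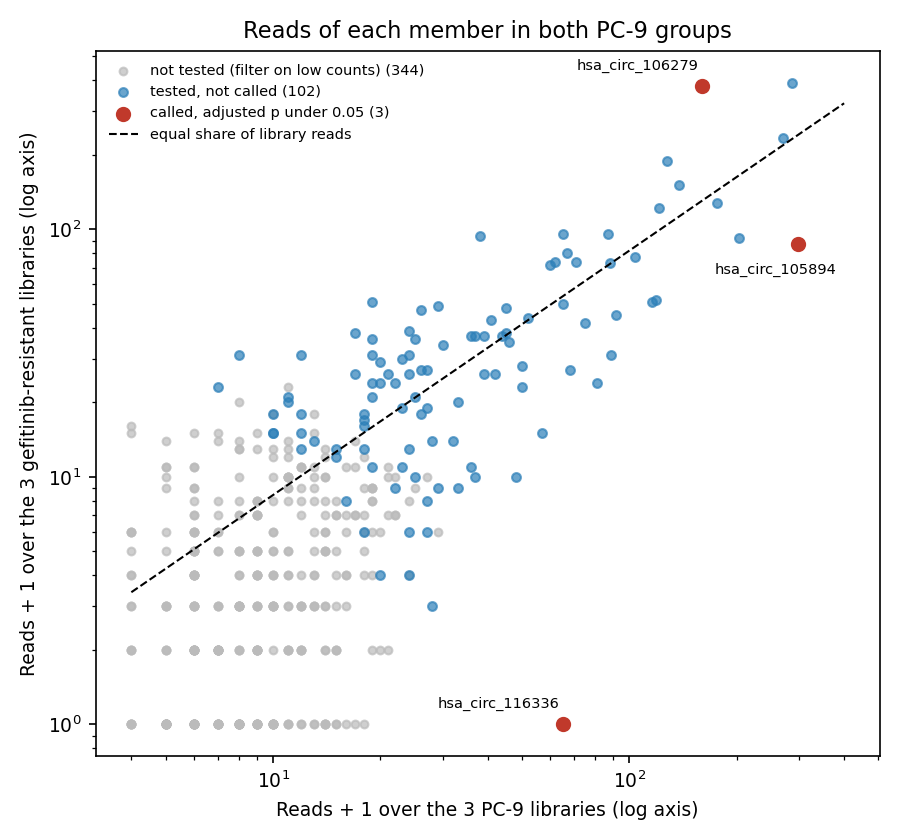
Reads + 1 of each of the 449 members over the 3 PC-9 libraries (horizontal) and the 3 gefitinib-resistant libraries (vertical), both on log axes, with a dashed line of equal share of library reads. The 3 called members lie away from the line, hsa_circ_106279 above it and hsa_circ_105894 and hsa_circ_116336 below, and the 344 untested members crowd at low counts.

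The gefitinib-resistant libraries were next set against NCI-H1975 cells after selection or transfection. The membership rule used neither side, but the 105 members tested had all passed the filter on low counts through the PC-9 and gefitinib-resistant libraries. edgeR's quasi-likelihood test called 73 members higher in gefitinib-resistant PC-9 than in osimertinib-resistant NCI-H1975 cells, 70 higher than in pCMV6 cells and 76 higher than in FASN cells. None was called lower. At an unadjusted p under 0.05, 93, 92 and 94 members were higher and 0 lower in each comparison. Of all circRNAs tested, 2551, 2619 and 2656 had such a p in either direction. Over all circRNAs tested, 7.55%, 7.97% and 8.64% were called higher in gefitinib-resistant PC-9. A direction towards gefitinib-resistant PC-9 was largely fixed by that filter, so these counts are given as a description. DESeq2 called 49, 49 and 52 members, and 1356, 1425 and 1473 of all circRNAs in either direction.

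Against all 3 NCI-H1975 groups, 66 members were called, and 59 of these had no read in the 9 libraries. They had a median of 36.0 gefitinib-resistant reads and at least 14. The 27 tested members called against none had at most 14. For these counts too the filter largely fixed the direction. The matching share over all circRNAs tested was not taken, so nothing is read from them. hsa_circ_106279, at 378 reads over the resistant PC-9 libraries and none in the 9, was at least 142-fold higher than in osimertinib-resistant, at least 111-fold higher than in pCMV6 and at least 131-fold higher than in FASN cells. For hsa_circ_104453 the bounds were at least 87.8-fold over osimertinib-resistant, at least 68.4-fold over pCMV6 and at least 81.0-fold over FASN cells. These bounds use a floor of 3 counts over each group and are given without a test, since both circRNAs passed the filter through the PC-9 lines and were named for high counts there.

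The set was not wholly absent from NCI-H1975 cells. Although the NCI-H1975 libraries in the rule held none, 82 members (18.3%) were read in osimertinib-resistant cells, 79 (17.6%) in pCMV6 cells and 74 (16.5%) in FASN cells. The levels were low: 236, 230 and 186 reads in all, or 0.0602% ± 0.0113, 0.0754% ± 0.00887 and 0.0522% ± 0.00417 of the reads of a library (SD, n = 3). A library held between 19 and 47 members in osimertinib-resistant cells, 26 to 35 in pCMV6 cells and 28 to 36 in FASN cells. The lowest value, 19, was that of osimertinib-resistant replicate 2.

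Few of these reads recurred between libraries of a group. Of the members read, 66 of 82 were in 1 library alone in osimertinib-resistant cells, 68 of 79 in pCMV6 cells and 53 of 74 in FASN cells. All 3 libraries of the group held 5, 5 and 0. With at least 3 reads, 18 of 34 (52.9%), 24 of 35 (68.6%) and 12 of 28 (42.9%) had all in 1 library. The shares among all circRNAs with at least 3 reads in the same group were 34.7%, 32.4% and 23.4%. In gefitinib-resistant PC-9 the share was 27 of 275 members (9.82%), against 24.8% of all circRNAs. These shares were not matched for reads. A member had at most 14, 11 and 8 reads in osimertinib-resistant, pCMV6 and FASN cells, and 390 in gefitinib-resistant PC-9. Whether the shares differ at equal reads was not tested.

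The counts also moved with single libraries. Without osimertinib-resistant replicate 1, 50 members were read in that group. With NCI-H1975 replicate 3 out of the rule, 125 members were read in pCMV6 and 116 in FASN cells, and without NCI-H1975 replicate 1, 115 in FASN cells. Without PC-9 replicates 1, 2 and 3 in turn the counts were 197, 158 and 236 for osimertinib-resistant, 164, 139 and 202 for pCMV6 and 171, 158 and 221 for FASN cells.

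Taking the 9 libraries as a whole, 297 members (66.1%) had no read in them and 152 (33.9%) had at least 1. A single read over the 9 accounted for 28 of the 152, and 52 had at least 5. Only 20 members were read in all 3 groups, while 35 were read in osimertinib-resistant cells alone, 29 in pCMV6 cells alone and 25 in FASN cells alone. More reads over the 9 libraries than over PC-9 were found for 18 members, none with more than 9 PC-9 reads.

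Members without a read in the 9 libraries were the more abundant ones. They had a median of 11.0 PC-9 reads against 8.0 for the 152, and held 72.5% of the PC-9 reads of the set. All 3 gefitinib-resistant libraries held 122 of the 297 (41.1%) and 40 of the 152 (26.3%). The share with a read in the 9 libraries went from 50.0% at 3 to 4 PC-9 reads to 36.7% at 5 to 9, 34.5% at 10 to 19, 19.0% at 20 to 49 and 17.9% at 50 or more. Of 504 circRNAs read in each PC-9 library and in NL20 but not in NCI-H1975, 402 (79.8%) had a read in the 9 libraries, and their share was above that of the members in each of these ranges. That difference was not tested. Members with at least 20 PC-9 reads, a read in all 3 gefitinib-resistant libraries and none in the 9 numbered 60, and held 43.4% of the PC-9 reads of the set.

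**Figure D5:**
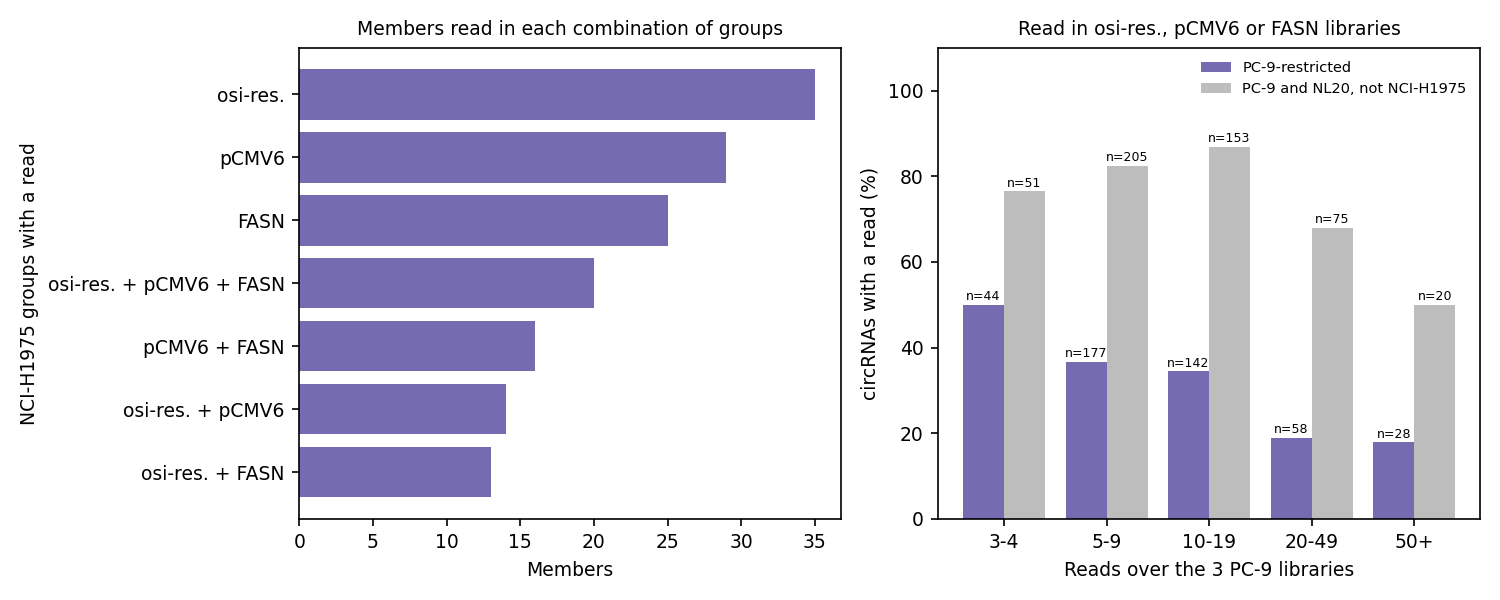
Members with a read in each combination of osimertinib-resistant, pCMV6 and FASN NCI-H1975 cells (left, number of members), and percent with a read in any of these by reads over the PC-9 libraries (right) for members and for circRNAs of PC-9 and NL20 absent from NCI-H1975. The largest combination on the left is osimertinib-resistant cells alone with 35, and on the right the members fall from 50.0% to 17.9%.

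Members among the most read in NCI-H1975 cells were mostly scarce in PC-9. hsa_circ_16676 had 3, 7 and 4 reads in osimertinib-resistant replicates 1, 2 and 3, 4, 0 and 0 in pCMV6 and 3, 1 and 0 in FASN cells, against 2, 4 and 1 in PC-9 and 0, 0 and 2 in gefitinib-resistant cells. It was thus read more in osimertinib-resistant NCI-H1975 cells than in either PC-9 group. hsa_circ_84269 had 2, 6 and 2 reads in osimertinib-resistant cells and none in pCMV6 or FASN cells, next to 7, 4 and 8 in PC-9 and 2, 1 and 0 in gefitinib-resistant cells. Its 10 osimertinib-resistant reads, set against a floor of 3 counts, stood 2.60-fold above pCMV6 and 3.07-fold above FASN cells. Counting error on the 10 reads was not taken in, and edgeR called neither difference. Since hsa_circ_84269 was named for its osimertinib-resistant reads, these values are given without p-values. It shared its sum of 10 osimertinib-resistant reads with hsa_circ_84457, which had 10, 0 and 0, and with hsa_circ_85075, which had 6, 4 and 0. Neither of these was read in pCMV6 or FASN cells. hsa_circ_84457 had 19 reads in PC-9 and 23 in gefitinib-resistant cells, and hsa_circ_85075 had 8 and 6.

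In pCMV6 cells hsa_circ_11195 had 5, 2 and 4 reads and hsa_circ_16134 had 3, 2 and 6. hsa_circ_11195 was also read in osimertinib-resistant cells (3, 0 and 2) and in FASN cells (2, 1 and 0), with 2, 1 and 2 in PC-9. hsa_circ_16134 was a PC-9 member of fair abundance, at 14, 26 and 9 reads in PC-9 and 7, 7 and 8 in gefitinib-resistant cells, and it had 1 read in osimertinib-resistant and 1 in FASN cells. Its level was 45.9 ± 28.1 CPM in pCMV6 and 3.36 ± 5.82 CPM in osimertinib-resistant cells (SD, n = 3), a difference that edgeR did not call. Since hsa_circ_16134 was named for its pCMV6 reads, these values are given without a p-value.

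The members most read in FASN cells differed in how their reads were spread. hsa_circ_55211 had all of its 8 FASN reads in replicate 3, none in osimertinib-resistant or pCMV6 cells, and 3, 1 and 1 reads in PC-9. hsa_circ_30552 likewise had all of its 6 in FASN replicate 3, with 4, 1 and 3 in PC-9, and 3 reads in osimertinib-resistant and 2 in pCMV6 cells. Its sum was shared by hsa_circ_32337, with 4, 2 and 0 FASN reads, and hsa_circ_43070, with 3, 3 and 0, which were each read in 2 libraries. The ties in the osimertinib-resistant and FASN cells were named after their values were seen.

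No member was called between osimertinib-resistant and pCMV6 cells or between osimertinib-resistant and FASN cells by edgeR's quasi-likelihood test, which called 1.83% and 2.5% of all circRNAs tested in either direction. At an unadjusted p under 0.05 there were 5 and 3 of the 105 members, and 1363 and 1296 of the 9175 circRNAs tested. DESeq2 called 0 members in both, against 247 and 347 of all circRNAs. With DESeq2, 1 and 1 members had an unadjusted p under 0.05. Differences were not detectable at this depth for most members, since 84 of the 105 tested had no read in any of the 9 libraries. With no filter, all 449 members were tested and 0 were called in both comparisons, against 58 and 43 of all circRNAs.

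Some members stood next to each other in the table's numbering. Numbers followed the library columns, each circRNA taking its place at the first column where it was read, and the order within a library is not given in the sources used here. Of the 3767 circRNAs first read in gefitinib-resistant replicate 1, 179 (4.75%) were members, and 42 of these (23.5%) were followed directly by another member. This was the highest share of any library's stretch of numbers. Among the other stretches that held members, it was 8.51% for PC-9 replicate 1, 6.38% and 4.17% for gefitinib-resistant replicates 2 and 3, 6.25% for osimertinib-resistant replicate 1, 3.85% to 5.71% for the pCMV6 libraries and 0 for the others. Stretches first read in NL20 or NCI-H1975 can hold no member by the rule, and those of PC-9 replicates 2 and 3 can hold none either. CircRNAs first read in a gefitinib-resistant or PC-9 library had no NL20 or NCI-H1975 read by their place, so members are denser there by construction. How often neighbouring numbers are alike among other circRNAs was not counted. In all, 94 members (20.9%) stood in 39 runs of consecutive numbers, the longest with 5. The run that ends with hsa_circ_105894 and starts at number 105892 had 32, 202 and 297 PC-9 reads by member, and its sum went from 531 reads to 196 in gefitinib-resistant cells. The longest run, numbers 106496 to 106500, had 210 PC-9 reads and 248 resistant ones. Neither run was chosen before its values were seen.

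The corresponding set of NCI-H1975 was smaller. With at least 1 read in each NCI-H1975 library and none in NL20 or PC-9, 348 circRNAs were found, with a median of 8.0 reads. Among those with at least 20 reads in their own line, 84.9% of 86 PC-9 members were in all 3 gefitinib-resistant libraries, and 61.1%, 77.8% and 94.4% of 36 NCI-H1975 circRNAs were in all 3 osimertinib-resistant, pCMV6 and FASN libraries. In gefitinib-resistant PC-9, 95 of the 348 (27.3%) had a read. These shares were not tested against each other, and the groups differ in depth.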

How the data were processed

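Circular RNA of 21 libraries was sequenced by a provider after extraction of total RNA, per the labels' protocols. The deposited values are raw counts of reads per circRNA. The submitters' processing notes name HISAT2, DESeq2 and the build hg38, without roles; the circRNA caller and its filters were not stated there or in the labels (not given in the sources used here). Each count column was matched to a sample by its title.

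Tests used edgeR 4.0.16 in R 4.3.3. Its filterByExpr kept 9175 circRNAs (minimum count 5, minimum total 15), and after TMM scaling 1 robust quasi-likelihood model was fitted over all 7 groups. P-values were adjusted by Benjamini-Hochberg within a comparison over all circRNAs tested. CPM are edgeR's, over the tested circRNAs. An SE is the log2 change divided by the square root of F. DESeq2 1.42.0 was an alternative, beside other scaling, filters, a fit of 2 groups and libraries left out. The code was tested on simulated data. Counting floors of 3 reads use library totals, and the bounds from them take in no counting error on the reads of the higher group. No library was identical to another.

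The rule for members, and the named circRNAs (most reads in PC-9, in PC-9 with no NCI-H1975 read or no resistant read, or in an NCI-H1975 group, and up to 2 called in each direction), were chosen with earlier results of these data known. Replicate numbers did not pair libraries: deviations of same-numbered libraries correlated at -0.031 to 0.049. No host gene list could be applied, as the identifiers carry no gene names.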

Additional observations from a re-analysis of the deposited data

How the results depend on the processing

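Low counts set the limits. No alternative turned the direction of the 3 members called between the PC-9 groups, and every call against NCI-H1975 cells stayed in the direction of gefitinib-resistant PC-9. The filter on low counts largely fixed the direction against NCI-H1975 cells, and PC-9 reads chose the members. Neither statement is therefore a test of the calls. Between gefitinib-resistant and other PC-9 cells, 3 members were called. There were 0 with no filter, 8 (5 higher, 3 lower) in a fit of those 6 libraries alone and 0 to 2 with a library left out. Over all circRNAs 124 were called, and then 16, 233 and 48 to 72. Against osimertinib-resistant, pCMV6 and FASN cells, 44, 42 and 45 members were called with no filter, and 490, 523 and 585 of all circRNAs in either direction. With a minimum count of 10 the counts against osimertinib-resistant and FASN cells were 47 and 48, where 49 members were tested. Over all circRNAs they were 1195 and 1309. Leaving out a library gave 50 to 59, 49 to 58 and 51 to 62 members, and 856 to 1021, 887 to 969 and 918 to 1034 of all circRNAs.

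The rule with at least 2 reads in each PC-9 library gave 212 members, of which 16 had no gefitinib-resistant read and 38, 30 and 26 a read in osimertinib-resistant, pCMV6 and FASN cells; they held 1.52% of PC-9 and 1.41% of resistant reads. Counting only circRNAs with at least 2 reads as read, 129 members were missing from gefitinib-resistant cells and 50 and 52 were read in osimertinib-resistant and pCMV6 cells. With a library left out, members numbered 498 to 1101, those with no resistant read 86 to 395, and those with a read in osimertinib-resistant, pCMV6 and FASN cells 50 to 236, 53 to 202 and 52 to 221. The share of reads was then 2.06% to 2.81% in PC-9 and 1.64% to 2.01% in resistant cells; over the reads of tested circRNAs it was 2.58% and 2.22%. Fewer libraries or a higher minimum change membership by construction. With the replicate block, members called numbered 3, 64, 64 and 68 against PC-9, osimertinib-resistant, pCMV6 and FASN cells. Over all circRNAs 111, 1221, 1265 and 1380 were called. In both comparisons within NCI-H1975 it called 0 members, against 158 and 209 of all circRNAs (fits of those pairs of groups alone tested no member). The block changed no count of members by over 1.5 times. The library with its own number was the best match for 0 to 2 of 3 libraries in a comparison.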

Other observations

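pCMV6 replicate 1 and osimertinib-resistant replicate 2 had the same total, 110456 reads. They were not the same library, as 19494 and 15244 circRNAs were read in them and the chi-square of their counts per degree of freedom was 8.83, against 2.08 to 4.97 for pairs within a group.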
